A study of Mus musculus with 9 samples.

Results

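The genes described here are the neurotrophins and their receptors, chosen by name: the ligands Bdnf and Ntf3, the Trk receptor kinases Ntrk2 and Ntrk3, the p75 receptor Ngfr, and Sort1, which encodes sortilin. They are 6 of the 37620 genes counted, and they were followed over all 9 samples. The study asked how ribosome-bound RNA of parvalbumin interneurons (PV INs) in hippocampal CA2/CA3 differs after a lentivirus carrying an shRNA to Ablim3, which encodes an actin-binding LIM protein, was put into the dentate gyrus (DG). There were 5 samples from mice given a virus with a non-target hairpin (shNT) and 4 from mice given the Ablim3 hairpin (shRNA), and each sample pooled CA2/CA3 tissue of 6 male and female mice. Every mouse of both groups was PV-Cre; Rpl22HA/HA, was injected at 2 months of age and was taken 2 weeks later. The tag on ribosomal protein Rpl22 is made only where Cre from the Pvalb locus acts, and tagged ribosomes were pulled down with an antibody to HA. Counts per sample ran from 18281719 to 34578837.

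Neurotrophins are secreted growth factors made as larger precursors that are cut to the mature ligand. Mature BDNF acts on TrkB (the product of Ntrk2) and NT-3 acts mainly on TrkC (Ntrk3), while the precursors bind p75 (Ngfr) together with sortilin (Sort1), which also sorts pro-BDNF inside the cell. In the hippocampus BDNF is known mostly as a product of excitatory neurons whose transcription follows activity, and the maturation of PV INs is among its best-known effects.

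The 2 Trk genes each make receptors with and without the kinase, and the counts sum over both. In the GENCODE M1 annotation of mouse build mm9, 3 Ntrk2 transcripts end with the kinase and 2 do not, and Ntrk3 has 1 whose coding end carries the kinase and 1 that does not. The coding sequence is shown around the point where the forms part, because a read counts toward the gene whichever end it comes from. The last 21 shared bases are in lower case and the bases of each form alone are in capitals. The short Ntrk2 form has 37 bases of its own after 1394 shared ones and stops there, and for the other forms the first 60 are given. The Ntrk3 forms share 1585 coding bases.
Ntrk2 kinase form: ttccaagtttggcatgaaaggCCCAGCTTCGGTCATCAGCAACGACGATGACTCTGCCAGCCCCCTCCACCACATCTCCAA
Ntrk2 short form: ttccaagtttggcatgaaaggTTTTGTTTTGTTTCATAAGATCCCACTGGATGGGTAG
Ntrk3 kinase form: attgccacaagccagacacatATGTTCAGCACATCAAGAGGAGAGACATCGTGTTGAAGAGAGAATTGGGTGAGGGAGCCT
Ntrk3 short form: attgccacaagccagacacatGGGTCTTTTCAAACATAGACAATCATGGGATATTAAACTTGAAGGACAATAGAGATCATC

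Bdnf is transcribed from several start sites, and RefSeq lists 7 of them for build GRCm38.p6. The promoter at start 3 holds the sequence TCACGTCA (TGACGTGA on the other strand), a variant of the CRE that CREB binds, and it is printed because this start is the one best known for its response to neuronal activity. The 100 bases before that start lie at chr2:109692336-109692435 on the plus strand, and the motif, in capitals, spans 38 to 31 bases upstream.
Bdnf promoter: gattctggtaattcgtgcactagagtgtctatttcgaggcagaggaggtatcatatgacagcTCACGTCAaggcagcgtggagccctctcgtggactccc
Searched on both strands of the 250 bases upstream, TGACGTGA was found in 1 of the 7 Bdnf promoters and in 0.350% of the 32851 promoters in the table. The full palindrome TGACGTCA was found in none of the 7, against 1.55% of all promoters, and neither was found in the 2 Ntf3 promoters or the single Ntrk2 and Ngfr promoters. Ntrk3 and Sort1 were not matched. The counts do not tell the Bdnf start sites apart, so they say nothing of which promoter the measured RNA came from.

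With the non-target hairpin, Trk receptor, sortilin and NT-3 RNA had the higher levels per kb of exon in the pulled-down RNA. There was little BDNF RNA and almost no p75 RNA. That RNA also held transcripts of other cells, with the pyramidal marker Camk2a averaging 543 CPM and the astrocyte markers Slc1a2 and Gfap 241 and 167 CPM in the shNT samples, and no input RNA was analysed here, so the levels are those of the pulldown. Levels of different genes were set side by side as CPM per kb of exon, the reads of a gene relative to the TMM-scaled library size (CPM) divided by the exon length of the gene. The order in the shNT samples was Ntrk2 at 22.4 ± 8.06 (SD, n = 5), Ntrk3 at 18.01 ± 4.10, Sort1 at 15.8 ± 5.07, Ntf3 at 15.5 ± 2.76, Bdnf at 2.08 ± 0.78 and Ngfr at 0.198 ± 0.0996 CPM per kb. Ntrk2 stood above Ntrk3 in 5 of 5 samples, Ntf3 above Bdnf in 5 of 5 and Bdnf above Ngfr in 5 of 5. Ntrk3 stood above Sort1 in only 2 of 5 samples and Sort1 above Ntf3 in 2 of 5, so those neighbours could not be put in order.

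In the shRNA samples the order was Ntrk2 at 28.6 ± 5.82 (SD, n = 4), Sort1 at 24.1 ± 4.41, Ntrk3 at 16.7 ± 3.83, Ntf3 at 11.9 ± 2.62, Bdnf at 3.08 ± 0.92 and Ngfr at 0.230 ± 0.0732 CPM per kb. Each neighbouring step of that order held in 4 of 4 samples. Dividing by the longest transcript in place of all exons left all 6 genes in the same places in both groups, although Sort1 then stood above Ntrk3 in only 2 of 4 shRNA samples and Ntrk3 above Sort1 in 5 of 5 shNT samples. Set against the 15069 genes tested, on mean CPM and not per length, Ntrk2 lay at percentile 97.3, Sort1 at 90.5, Ntrk3 at 83.8, Ntf3 at 49.4, Bdnf at 43.3 and Ngfr at 5.71.

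**Figure D1:**
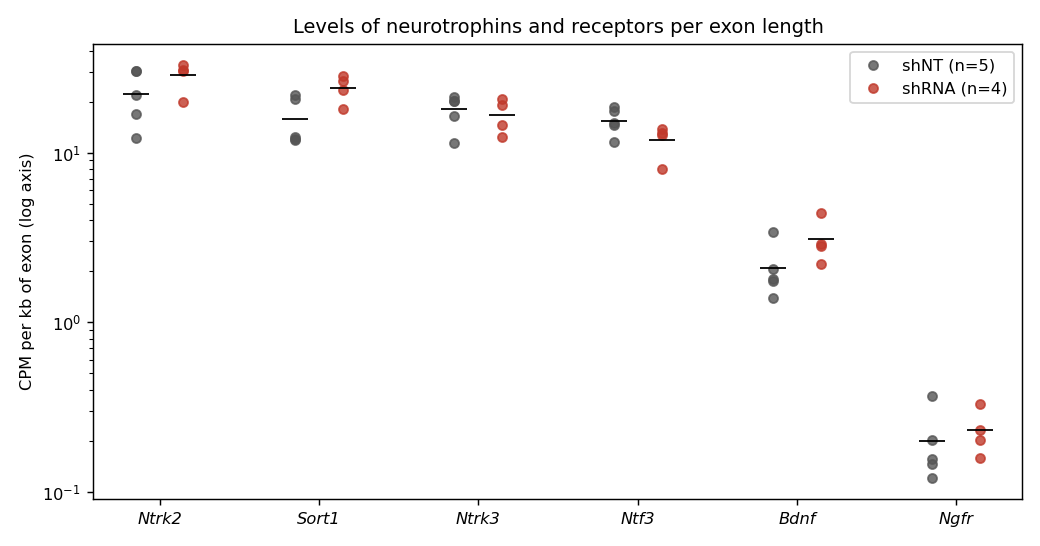
Levels of the 6 genes in CPM per kb of exon on a log axis, with 1 point per sample, shNT in grey (n = 5) and shRNA in red (n = 4), and a short line at each group's mean. Bdnf lies below Ntf3 and above Ngfr in every sample, and the Ntrk2, Sort1, Ntrk3 and Ntf3 points of the shNT samples overlap.

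NT-3 outweighed BDNF as a transcript in all 9 samples. The ratio of Bdnf to Ntf3 per kb of exon ran from 0.0748 to 0.228 in the shNT samples (median 0.142) and from 0.170 to 0.548 in the shRNA samples (median 0.216), and it was below 1 throughout. Between the receptors, the ratio of Ntrk2 to Ntrk3 ran from 1.03 to 1.49 (median 1.08) with shNT and from 1.38 to 2.67 (median 1.54) with shRNA. The ratio in the shNT samples therefore ran from near equality up to 1.49. The shRNA samples lay higher, with the groups overlapping between 1.38 and 1.49. Near equality depended on the length used: per kb of the longest transcript, the shNT means were 39.5 for Ntrk2 and 28.6 for Ntrk3.

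Of the other ligands, Ntf5, which encodes NT-4, gave 3 to 8 reads a sample and stayed under the level needed for a test.

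Bdnf was counted at ENSMUSG00000048482 (mm9 chromosome 2, 109514857 to 109567204, plus strand, 5850 bases of exon). Its level in shNT samples 1 to 5 was 10.45, 19.9, 12.04, 8.12 and 10.3 CPM, and in shRNA samples 1 to 4 it was 16.9, 13.0, 16.5 and 25.6 CPM. All 4 shRNA samples lay above the shNT mean of 12.2 CPM, but shNT 2 exceeded 3 of them, so the groups overlapped. The log2 fold change was 0.57 (SE 0.27, interval -0.03 to 1.16), with an adjusted p of 0.163 (quasi-likelihood test of edgeR, Benjamini-Hochberg over all genes tested). The intervals of the fold changes given here are at 95%. A two-sided exact permutation test of the 126 possible splits gave p = 0.0952. The largest value came from shRNA 4, and the log2 fold change was 0.31 without it, 0.81 without shNT 2 and 0.18 once a trend of fold change on exon length over all genes was taken off.

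Ntf3 (ENSMUSG00000049107, mm9 chromosome 6, 126051431 to 126116762, minus strand, 1427 bases of exon) stood at 16.6, 21.3, 20.8, 26.5 and 25.2 CPM in the shNT samples and at 18.2, 18.6, 19.6 and 11.4 CPM in the shRNA samples. All shRNA samples were under the shNT mean of 22.1 CPM, yet shNT 1 was below 3 of them. The log2 fold change was -0.38 (SE 0.20, interval -0.81 to 0.05), with an adjusted p of 0.189 in the quasi-likelihood test and an exact permutation p of 0.127. Leaving out shRNA 4, where Ntf3 was lowest, gave a log2 fold change of -0.25.

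Ntrk2, the TrkB gene (ENSMUSG00000055254, mm9 chromosome 13, 58907957 to 59235331, plus strand, 15094 bases of exon), varied widely within the shNT group. Its shNT values were 457, 184, 459, 332 and 256 CPM and its shRNA values 303, 467, 457 and 500 CPM. Samples shNT 1, 3 and 4 lay within the range of the shRNA samples, and shRNA 1 and 3 lay within that of the shNT samples. The log2 fold change was 0.36 (SE 0.27, interval -0.25 to 0.96), with an adjusted p of 0.363 in the quasi-likelihood test and an exact permutation p of 0.254. It was -0.36 once the trend on exon length was taken off, so its direction depended on that correction.

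Ntrk3, the TrkC gene (ENSMUSG00000059146, mm9 chromosome 7, 85337248 to 85723294, minus strand, 5241 bases of exon), had the smallest difference of the 6 genes. It stood at 106, 60.1, 112, 107 and 86.6 CPM in shNT and at 76.3, 108, 100 and 65.1 CPM in shRNA. The lowest sample of each group, shNT 2 and shRNA 4, had about the same level, and the ranges nearly coincided. The log2 fold change was -0.11 (SE 0.21, interval -0.58 to 0.35), with an adjusted p of 0.726 in the quasi-likelihood test and an exact permutation p of 0.651. The interval covers differences in both directions. The sign turned without shRNA 4, within the samples whose names carry the number 31, and with the outside-exon read share as covariate.

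Ngfr, the p75 gene (ENSMUSG00000000120, mm9 chromosome 11, 95430132 to 95449049, minus strand, 3446 bases of exon), was close to the limit of detection. It gave 15, 9, 37, 10 and 22 reads in the shNT samples and 21, 32, 15 and 12 in the shRNA samples, or 0.413 to 1.27 and 0.541 to 1.14 CPM. It entered the test only because shNT 3 and shRNA 2 reached 1 CPM. The log2 fold change of 0.21 (SE 0.42, interval -0.72 to 1.14, adjusted p = 0.747 by the quasi-likelihood test, exact permutation p = 0.429) had the widest interval of the 6 genes. A difference was not detectable at this depth, and the sign turned without shRNA 2 and with the correction for exon length.

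Sort1 (ENSMUSG00000068747, mm9 chromosome 3, 108087009 to 108164429, plus strand, 7560 bases of exon) came closest to the call. Its shNT values were 157, 90.6, 165, 89.5 and 93.7 CPM and its shRNA values 138, 200, 214 and 176 CPM. Samples 2 to 4 of the shRNA group exceeded every shNT sample, and only shRNA 1 fell below shNT 1 and shNT 3. The log2 fold change was 0.61 (SE 0.23, interval 0.10 to 1.12), with an unadjusted p of 0.0227 and an adjusted p of 0.0991 in the quasi-likelihood test, and with an exact permutation p of 0.0635. It kept between 0.44 and 0.73 as each sample was left out in turn, but it was 0.14 once the trend on exon length was taken off. Of its exon bases 4.35% overlap those of Gm12523, where reads cannot be told apart without strand.

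**Figure D2:**
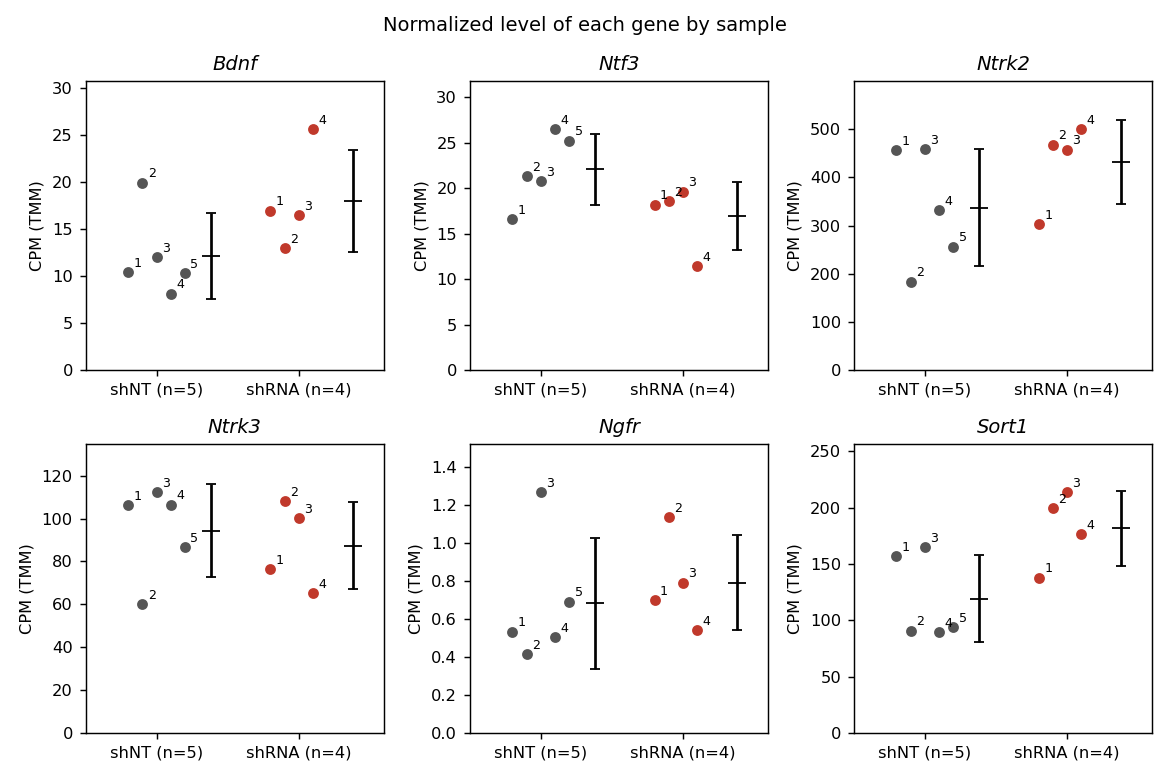
CPM (TMM-scaled) of each gene in every sample, numbered by replicate, with a bar for mean ± SD of the shNT (n = 5) and shRNA (n = 4) samples. The groups overlap in all 6 panels, and Sort1 comes nearest to separation, with shRNA samples 2 to 4 above every shNT sample.

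Read as a set, none of the 6 genes passed the call rule of an adjusted p under 0.05 with at least a 1.5-fold change. Over the 15069 genes tested the same rule called 262 higher (1.74%) and 2 lower (0.0133%), or 1.75% in either direction. At an unadjusted p under 0.05, 1 of the 6 passed (Sort1), where 34.1% of all genes did, 20.7% as higher and 13.4% as lower. None of the 6 had every shRNA sample above or below every shNT sample, which 8.97% of all genes did upward and 6.68% downward. The likelihood ratio test and the exact test of edgeR, and DESeq2, also called none of the 6. The voom fit of limma with sample quality weights called Bdnf (log2 fold change 0.61, adjusted p = 0.0174) and Sort1 (0.89, adjusted p = 0.00349), but it called 15.3% of all genes higher and 4.1% lower. Over all alternatives the adjusted p ran from 0.0174 to 0.922 for Bdnf and from 0.00349 to 0.559 for Sort1.

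**Figure D3:**
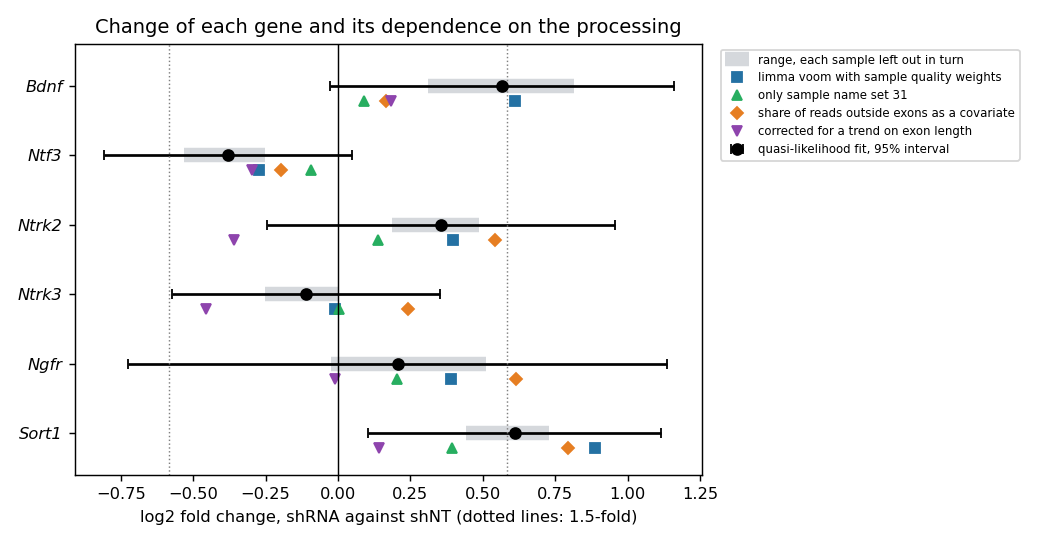
Log2 fold change (shRNA against shNT) of each gene from the quasi-likelihood fit with its 95% interval in black, the range as each sample is left out in grey, and 4 other settings as coloured symbols, with dotted lines at a 1.5-fold change. The interval lies wholly above 0 for Sort1 alone, and the coloured symbols fall on both sides of 0 for Ntrk2, Ntrk3 and Ngfr.

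Levels of cell type markers are given beside these values. The 12 PV IN markers were detected in every sample, and their summed level ran from 9379 to 14427 CPM in shNT and from 4498 to 10871 CPM in shRNA, with all 12 log2 fold changes negative. Pvalb itself was 678, 1106, 743, 1089 and 1375 CPM in the shNT samples and 705, 552, 539 and 310 CPM in the shRNA samples. For 12 astrocyte markers, all with positive log2 fold changes, the summed level was 1136 to 1625 CPM in shNT and 1514 to 5919 CPM in shRNA, and the top of that range was shRNA 4. The 10 CA2/CA3 pyramidal markers summed to 791 to 1722 CPM in shNT and 1791 to 2230 CPM in shRNA. Of these markers 2 pyramidal ones passed the call rule as higher and no PV IN or astrocyte marker did. Also called higher were 3 of 6 markers of oligodendrocyte precursors (Pdgfra, Olig2 and Gpr17), 2 of 8 of other interneurons (Cnr1 and Reln) and 1 of 8 of DG granule cells (Dock10). The same rule called 1.74% of all genes tested higher. The 8 oligodendrocyte markers and the 6 nuclear-retained RNAs all had positive log2 fold changes, with medians of 0.78 and 1.07, but none was called. In these pooled samples fewer cells of a type and less RNA per cell cannot be told apart, and the part of either in the values of the 6 genes was not tested.

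Sample by sample, the genes differed in what they moved with. Bdnf was highest in shRNA 4 and shNT 2, which also had the highest shares of reads outside exons of their groups, 27.2% and 18.6%. Ntf3 was lowest in shRNA 4, the sample with the lowest Pvalb level. Ntrk3 was lowest in shNT 2 and shRNA 4. With that share as covariate, the log2 fold changes were 0.17 for Bdnf, -0.20 for Ntf3, 0.54 for Ntrk2, 0.24 for Ntrk3, 0.62 for Ngfr and 0.79 for Sort1. Within the 3 shNT and 3 shRNA samples whose names carry the number 31, they were 0.09 for Bdnf, -0.09 for Ntf3, 0.14 for Ntrk2, 0.00304 for Ntrk3, 0.21 for Ngfr and 0.39 for Sort1. No gene was called in either fit. The labels do not say what the name number stands for, and the other set held too few samples to be fitted alone.

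**Figure D4:**
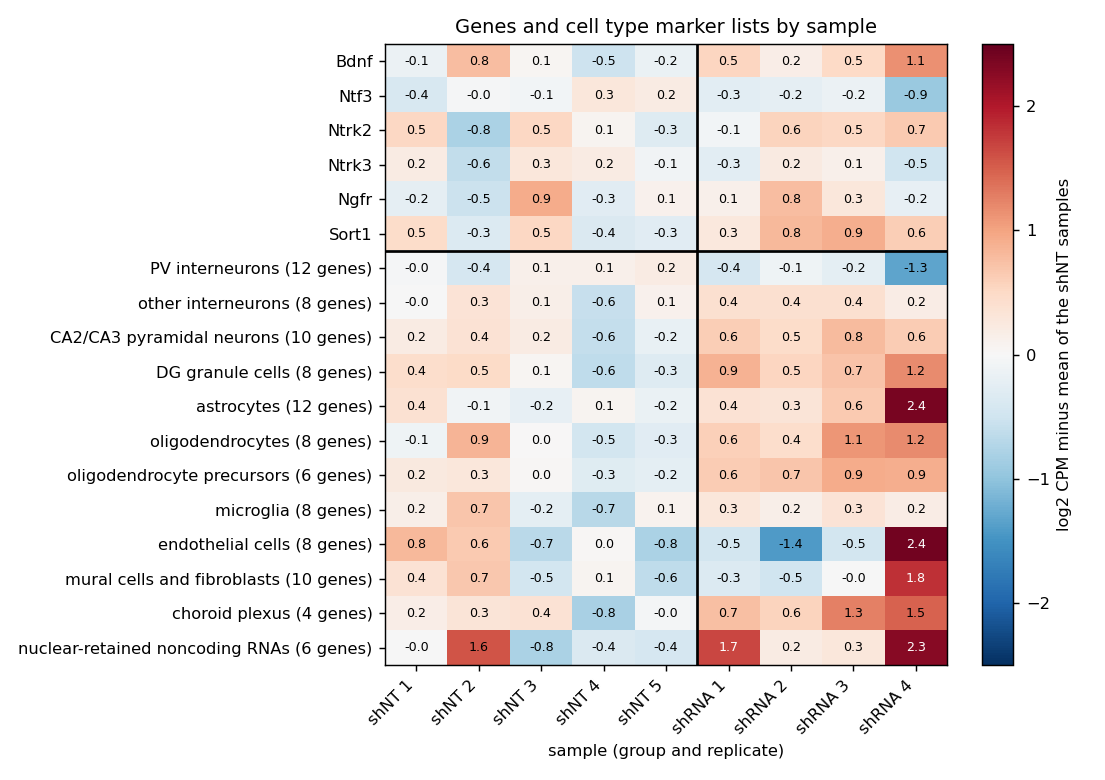
Heat map of log2 CPM minus the mean of the shNT samples for the 6 genes (above the line) and the mean over each list of cell type markers or nuclear RNAs (below it), by sample. Astrocyte and endothelial markers reach 2.38 and 2.40 in shRNA 4, where Ntf3 is lowest and Bdnf highest, and shNT 2 is high for Bdnf and low for Ntrk2 and Ntrk3.

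The genes whose log2 level followed each member most closely over the 9 samples are given as a description, since all points share the same libraries and depths. They were sought among 9495 genes averaging at least 10 CPM. For Bdnf they were Fam19a1 (Pearson r = 0.973) and Dot1l (0.962), and for Ntf3 Rab33a (0.979) and Ndufs8 (0.976). Ntrk2 was followed by Ncam1 (0.994) and Slc41a1 (0.989), Ntrk3 by Klhl13 and Btbd11 (0.993 each), and Sort1 by Mtor and Ubr3 (0.994 each). Correlations this high were common for Ntf3 and rare for Ngfr, with 918 genes above 0.9 for Ntf3, 748 for Ntrk3, 467 for Sort1, 319 for Ntrk2, 92 for Bdnf and 1 for Ngfr (Gpr89, 0.918).

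Around the ligands and receptors, 4 genes of the wider pathway lists were called higher and none lower. They were Sorcs3, a relative of sortilin, Cadps2, which promotes dense-core vesicle release, Pcsk5, a proprotein convertase, and Nedd4l, a ubiquitin ligase. The lists held 133 genes, of which 132 were counted (Hras was not matched) and 127 were tested. The 4 called are 3.15% of those tested, against 1.75% of all genes. Only 0.0133% of all genes were called lower, so a list of this size could hardly hold such a call. The lists were chosen with earlier results of these data known. The median log2 fold change of the 127 was 0.24, against 0.11 over all genes tested, and 90 were positive, or 37 negative, where 57.9% of all genes were positive.

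Sorcs3 stood at 6.01, 6.38, 6.28, 3.13 and 4.89 CPM in shNT and at 12.9, 12.9, 13.4 and 15.3 CPM in shRNA. The lowest shRNA sample lay far above the highest shNT sample, so the groups were well apart. Its log2 fold change was 1.35 (SE 0.21), with an adjusted p of 0.0403 in the quasi-likelihood test. The rest of the sortilin family had positive values that missed the threshold: Sort1 itself, Sorl1 (0.49, adjusted p = 0.222), Sorcs2 (0.95, adjusted p = 0.107) and Sorcs1 (1.09, adjusted p = 0.0797). The median of the 5 was 0.95, with no correction for exon length. Once the trend on exon length was taken off, Sorcs3 was 0.98 and Sort1 0.14. By voom all 5 were called, where 15.3% of all genes were called higher.

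Among 11 tested genes of precursor processing and release, Cadps2 and Pcsk5 were called. Cadps2 averaged 10.9 ± 4.35 CPM (SD) over the 5 shNT samples and 27.1 ± 2.88 CPM over the 4 shRNA samples, and its log2 fold change was 1.31 (SE 0.27, adjusted p = 0.0433 by the quasi-likelihood test). Pcsk5 went from 2.59 ± 0.39 to 5.59 ± 1.46 CPM, a log2 fold change of 1.11 (SE 0.23, adjusted p = 0.0433). In both, all shRNA samples lay above all shNT samples, as in 5 of the 11 tested genes of this list and 8.97% of all genes. The most abundant genes of this list differed little in Cpe, which encodes carboxypeptidase E and stood at 2036 ± 190 and 2009 ± 195 CPM, and by -0.30 (adjusted p = 0.496) in Serpini1, which encodes neuroserpin. Pcsk6 (1.17, adjusted p = 0.063), Hap1 (0.78, adjusted p = 0.066) and Pcsk2 (0.62, adjusted p = 0.0706) missed the threshold with their groups apart.

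The signalling lists below the receptors held no call in 23 adaptors or 32 kinase cascade genes, with medians of 0.31 and 0.22. With 1.75% of all genes called, no call in lists this short says little. Of the most abundant adaptors, Grb2 gave -0.27, Crk -0.17 and Kidins220, a Trk scaffold, 0.35, with adjusted p-values of 0.199, 0.401 and 0.273. Of the kinases, Map2k1 gave 0.02 (adjusted p = 0.923) and Akt1 -0.25 (adjusted p = 0.334). Camk2a, which is also a pyramidal marker, gave 0.76 (adjusted p = 0.0924). In all, 15 adaptors were positive and 8 negative, and 24 kinase cascade genes were positive and 8 negative. The highest values of the 2 lists were those of Gab1 (1.25, adjusted p = 0.058) and Prkcd (1.12, adjusted p = 0.066).

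For 19 partners of p75 the median was 0.26 and none was called, where 1.75% of all genes were. Within that list Ngfrap1 (-0.69, adjusted p = 0.0662) and Bex2 (-0.70, adjusted p = 0.0679) had every shRNA sample below every shNT sample, as did Arhgdia (-0.23, adjusted p = 0.242) and 6.68% of all genes. Another 4 of the list, Lingo1 (0.82), Rtn4rl2 (0.70), Adam17 (1.01) and Zfp110 (0.61), had every shRNA sample above every shNT sample, as did 8.97% of all genes, and their adjusted p-values ran from 0.063 to 0.0725. Maged1, the most abundant, gave 0.14 (adjusted p = 0.658). Among 17 genes of Trk turnover and surface partners, Nedd4l averaged 38.2 ± 9.50 CPM (SD) with shNT and 83.1 ± 10.4 CPM with shRNA, and its log2 fold change was 1.12 (SE 0.19, adjusted p = 0.0403 by the quasi-likelihood test), with the groups apart. Its relative Nedd4 gave 0.23 (adjusted p = 0.394), Rab7, a late endosome GTPase, -0.39 (adjusted p = 0.14) and Cdk5 -0.40 (adjusted p = 0.104). The 15 BDNF-responsive genes, Bdnf itself among them, had a median of 0.23 and no call, and 9 were positive and 6 negative. The most abundant were Slc12a5, the chloride exporter KCC2, at 0.13 (adjusted p = 0.788), Vgf at -0.24 (adjusted p = 0.483), Npy at -0.50 (adjusted p = 0.273) and Homer1 at 0.41 (adjusted p = 0.119). The highest values were those of Arc (1.19, adjusted p = 0.063) and Egr3 (1.12, adjusted p = 0.0725).

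**Figure D5:**
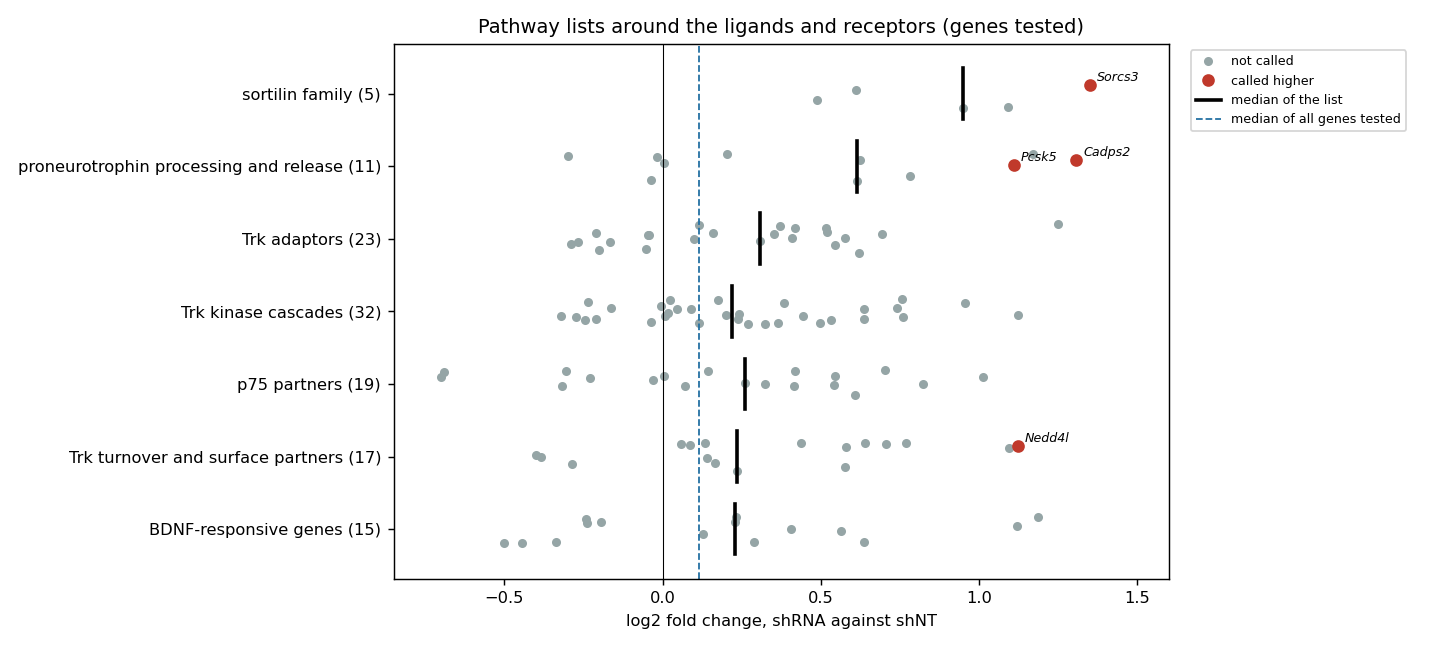
Log2 fold change (shRNA against shNT) of every tested gene of the 7 pathway lists around the ligands and receptors, with called genes in red and named, the median of each list as a black bar and the median of all 15069 genes as a dashed line. Sorcs3, Cadps2, Pcsk5 and Nedd4l are the called genes, and the sortilin family lies wholly to the right of 0.

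The 4 calls did not hold under every setting. Sorcs3 stayed called in 15 of 25 alternatives with a test, Nedd4l in 15, Cadps2 in 14 and Pcsk5 in 13. Their log2 fold changes were, in that order, 1.04 to 1.53, 0.84 to 1.35, 0.86 to 1.62 and 0.79 to 1.21. Among those 25, the version 3 form of the test and the lifting of the fold change minimum reused the main fit. Neither could lose a call. Once the trend on exon length was taken off, for which there was no test, the log2 fold changes were 0.98 for Sorcs3, 0.58 for Nedd4l, 0.74 for Cadps2 and 0.59 for Pcsk5. With each sample left out in turn, Sorcs3 and Nedd4l stayed called in 4 of 9 fits and Cadps2 and Pcsk5 in 3 of 9. All 4 calls were lost without shNT 3, 4 or 5 or shRNA 1 or 3, and those of Cadps2 and Pcsk5 also without shRNA 4. None of the 4 was called with library sizes alone, with upper quartile scaling, with the replicate number as a block, within the samples whose names carry the number 31 or with the outside-exon read share as covariate. Several markers of other cell types given above also had positive log2 fold changes, and their part in these calls was not tested.

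Ablim3, the target of the hairpin, was 22.6, 12.1, 22.2, 15.4 and 12.3 CPM in the shNT samples and 21.7, 19.5, 19.4 and 13.7 CPM in the shRNA samples (log2 fold change 0.13, SE 0.23, adjusted p = 0.701 by the quasi-likelihood test). The virus was put into the DG while the RNA came from PV INs of CA2/CA3, so this level does not check the labels.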

How the data were processed

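Per the labels and the study's methods, immunoprecipitated RNA with an integrity number of at least 8 was made into libraries, and 50-base reads were aligned with STAR to the mm9 transcriptome. The authors deposited raw counts per Ensembl gene for each sample from HTSeq 0.6.0, counted without strand. The annotation release is not given in the sources used here. GENCODE M1 (mm9) named 37205 of the 37620 identifiers. Rows for reads outside exons, which the files list beside the genes (9.76% to 27.2% of uniquely aligned reads), ambiguous and multiple alignments were left out of library sizes and tests.

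Genes that reached 1 CPM in any sample (15069, with 22551 removed) were scaled by TMM and fitted with edgeR 4.0.16 (quasi-likelihood test, condition only) in R 4.3.3. A gene was called at an adjusted p (Benjamini-Hochberg over all genes tested) under 0.05 with at least a 1.5-fold change. The biological coefficient of variation was 0.303. Permutation tests used log2 CPM with a prior count of 2. Alternatives used DESeq2 1.42.0, limma 3.58.1 and other scalings, filters and sample sets. Named genes were the 6 members, pathway genes that were called, up to 4 of the highest mean CPM in each list, the genes most alike in pattern, Ablim3 and Pvalb. Sorcs1, Pcsk6, Gab1, Prkcd, Lingo1, Rtn4rl2, Adam17, Zfp110, Arc, Egr3 and the cell type markers were named besides, after their values were seen. Some genes are not reported here. The members and lists were chosen with earlier results of these data known. The labels do not say that samples came from separate cohorts beyond the pooled mice, so p-values measure the spread between these samples. No 2 samples of a group agreed within sampling noise.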

Additional observations from a re-analysis of the deposited data

Results flagged for a closer look

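In shRNA 4, Ntf3 (11.4 CPM) lay apart from the other 3 shRNA samples, the gap to the nearest of them taking 0.859 of the group's range on the log2 scale. Among 20 groups of values examined, 1 stood out in this way, where chance gives about 1. The same sample had the lowest Pvalb level (310.0 CPM) and the highest summed level of astrocyte markers (5919 CPM), and the part of either was not tested.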

How the results depend on the processing

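The quasi-likelihood test in its version 3 form was the installed default, so testing that form gave identical values, and its version 4 form was added after the data were seen. The numbers called higher and lower over all genes (262 and 2) were 1688 and 542 by the likelihood ratio test, 1659 and 534 by edgeR's exact test, 1519 and 844 by DESeq2 and 2301 and 618 by voom. Both were 0 with library sizes alone, upper quartile scaling, the samples named 31 alone or the outside-exon read share as covariate. Without a filter they were 501 and 14. The number lower alone was 6 by the version 4 form, 1 with DESeq2 size factors, 8 with 1 CPM required in 4 samples and 1 with the name set as a block. Leaving out 1 sample gave 0 to 1007 higher and 0 to 410 lower, with 1007 higher without shNT 1, 481 without shNT 2, 142 without shRNA 4 and 0 without any of shNT 3, 4 and 5 and shRNA 1 and 3.

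Of the pathway genes (4 higher, 0 lower), 23 and 2 were called by both the likelihood ratio and exact tests, 21 and 2 by DESeq2 and 34 and 3 by voom. None was called higher with library sizes alone, upper quartile scaling, the samples named 31 or the covariate. Leaving out 1 sample gave 0 to 17 higher and 0 to 2 lower.

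Bdnf (0.61) and Sort1 (0.89) were called by voom. After the length correction Sort1 was 0.14, Ntrk2 -0.36 and Ngfr -0.00948. Ntrk3 turned to 0.00304 within the samples named 31, 0.24 with the covariate and 0.00114 without shRNA 4, its lowest value with 1 sample left out being -0.253 (without shRNA 3). Leaving out 1 sample gave -0.0257 (without shRNA 2) to 0.51 (without shNT 3) for Ngfr. Ntf3 kept its sign in all 26 alternatives, as did Bdnf. Several of these, such as the likelihood ratio and exact tests, gave the main log2 fold change again, so their sign is no separate check. Within the samples named 31 the values were -0.09 for Ntf3 and 0.09 for Bdnf.

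With the replicate number as a block, 29 genes were called higher, 0 lower and 0 of the pathway. Same-numbered samples deviated together for replicate 3 only (correlations -0.267, -0.641, 0.486 and -0.181), so the numbers were not taken to pair samples. Ngfr, at 9 to 37 reads, is the gene most limited by depth.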
